A study of Homo sapiens with 12 samples.

Results

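The transcripts described here are those of 10 genes that ERK1/2 signaling switches on and that, in part, hold it in check: the phosphatases DUSP4, DUSP5 and DUSP6, the Sprouty genes SPRY1, SPRY2 and SPRY4, their relatives SPRED1 and SPRED2, and the transcription factors ETV4 and ETV5. They were chosen by name as feedback genes of the pathway and make up 10 of the 32152 genes in the table. RNA-seq was performed on MDA-MB-231 cells and on Hs-578T cells, 2 lines from triple-negative breast tumors, each as unedited parental cells, as ERK5-ko cells and as MEK5DD cells, with 2 libraries per group and 12 in all. In ERK5-ko cells, MAPK7, the gene of the kinase ERK5, was targeted by CRISPR/Cas9. MEK5DD cells carry MEK5, the kinase upstream of ERK5, in a permanently active form, and neither its vector nor its promoter is given in the sources used here. Parental MDA-MB-231 cells were labelled passages 29 and 30, ERK5-ko cells 7 and 8, and MEK5DD cells 10 and 11. Parental Hs-578T cells were labelled passages 83 and 84, and both engineered Hs-578T groups 8 and 9. The paper gives later passages than the ERK5-ko labels for the parental cells from which the ERK5-ko lines were made. The ERK5-ko labels therefore do not count on the parental scale. Where the MEK5DD count starts is not given in the sources used here. The 2 libraries of a group are thus consecutive passages that nothing describes as separate cultures, and every p-value below measures only the spread between such passages. MDA-MB-231-ERK5-ko cells descend from 1 surviving clone, Hs-578T-ERK5-ko cells were also picked as clones, and a control clone or vector was not analysed here, so that the edit, the cloning and the passage cannot be told apart. The comparisons with parental cells ask how loss, or constant activation, of the MEK5-ERK5 arm alters transcription.

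ERK1 and ERK2 are the last kinases of the RAS, RAF and MEK cascade, which carries growth factor signals to the nucleus. Once active, they induce a set of genes that damp the cascade again. DUSP6 removes phosphate from ERK1/2 in the cytoplasm and DUSP4 and DUSP5 do so in the nucleus, Sprouty and SPRED proteins act upstream on RAS and RAF, and ETV4 and ETV5 are ETS transcription factors that pass the signal on. Transcript levels of these genes are widely used as a readout of ERK1/2 output. In breast cancer cells this output is often high when the cascade is mutated upstream. ERK5 is a related MAP kinase with a cascade of its own, in which MEK5 is the only known direct activator.

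The libraries held 20248162 to 27791195 reads, of which 92.0% to 94.5% lay on listed genes. Levels are given in RPKM, reads scaled to the length of the gene model and to the size of the library. MAPK7 transcript was no lower where the label was ERK5-ko, with 16.3 and 17.8 RPKM against 13.3 and 14.3 RPKM in parental MDA-MB-231 cells, and with 17.8 and 18.1 RPKM against 13.97 and 15.98 RPKM in parental Hs-578T cells (limma adjusted p = 0.0709 and 0.0624). These counts cover the whole gene and do not read out the edited sites, so that the transcript level does not check the label. The paper checked it at the protein level, where its Western blots gave ERK5 far below parental cells in both ERK5-ko lines. MAP2K5, the gene of MEK5, rose in MEK5DD cells from 13.2 ± 0.496 to 186 ± 3.31 RPKM in MDA-MB-231 and from 15.8 ± 1.65 to 22.5 ± 1.81 RPKM in Hs-578T (SD, n = 2, limma adjusted p = 3.31e-10 and 0.00492). Group means of ESR1 and PGR were at most 0.0908 and 0.325 RPKM, and those of VIM, CD44 and AXL at least 1617, 828 and 426 RPKM. ERBB2 and GATA3 were measured in every group, with means of 31.5 to 55.9 and 4.27 to 9.28 RPKM. EPCAM had means of 7.44 to 25.1 RPKM in MDA-MB-231 groups and at most 0.0649 RPKM in Hs-578T groups. Those of CDH1 were at most 1.04 RPKM. Of 6 markers of other cell types, PTPRC, CD3E, CDH5 and COL2A1 together stayed at or below 0.396 RPKM in every library, whereas CD68 and PECAM1 were measured in both lines.

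Promoter sequence was available for 6 of the 10 genes, in 10 windows of 250 bases before an annotated start (RefSeq, GRCh38.p14). The Sprouty pair SPRY1 and SPRY2 is shown because SPRY1 fell and SPRY2 rose in MDA-MB-231-MEK5DD cells, and because both windows lie outside every annotated exon and gene. The SPRY1 window is chr4:123396545-123396794 on the plus strand, the SPRY2 window chr13:80341127-80341376 on the minus strand, each 5′ to 3′ toward the start. Capitals mark TGACG, the core of the cAMP response element, and AGGAAG, the PEA3 motif that ETV4 and ETV5 can bind, on either strand.
SPRY1: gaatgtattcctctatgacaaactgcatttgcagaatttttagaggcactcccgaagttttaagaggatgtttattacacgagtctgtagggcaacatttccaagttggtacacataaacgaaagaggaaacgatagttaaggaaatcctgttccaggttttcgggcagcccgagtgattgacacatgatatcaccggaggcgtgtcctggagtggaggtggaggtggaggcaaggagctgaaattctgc
SPRY2: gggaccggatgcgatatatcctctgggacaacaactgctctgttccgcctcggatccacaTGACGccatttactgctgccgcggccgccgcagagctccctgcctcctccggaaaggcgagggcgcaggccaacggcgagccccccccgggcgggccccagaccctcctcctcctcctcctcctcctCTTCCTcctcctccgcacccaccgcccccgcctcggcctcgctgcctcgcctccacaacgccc
The SPRY2 window held TGACG 190 bases and the PEA3 motif, as its reverse complement, 63 bases before the start, and the SPRY1 window held neither. The PEA3 motif did occur in the other SPRY1 window, which lies inside annotated exons and is not shown. GC content was 70.4% for SPRY2 and 45.6% for SPRY1. Over the 6 genes, the PEA3 motif occurred in 8 of 10 windows, which belong to 5 genes, against 28.7% of 35116 promoters. TGACG occurred in 2 windows (SPRY2 and SPRY4), against 21.2%. Some genes have more than 1 window and some windows lie inside annotated exons, so that the 10 windows are not 10 independent promoters. The full cAMP response element TGACGTCA, which contains TGACG, the AP-1 motif TGANTCA and the CArG box occurred in 0 of the 10 windows, and in 1.65%, 6.57% and 1.16% of all promoters. These matches describe letters in the windows and say nothing of binding.

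All of the feedback genes were higher in parental MDA-MB-231 than in parental Hs-578T cells, by up to 79.8-fold for DUSP4. The phosphatases differed most. DUSP4 was measured at 77.9 and 78.9 RPKM in parental MDA-MB-231 cells, 85.4 and 81.7 in ERK5-ko cells and 47.4 and 48.8 in MEK5DD cells, against 1.011 and 0.955 RPKM in parental Hs-578T cells, 3.296 and 3.10 in ERK5-ko cells and 1.699 and 1.998 in MEK5DD cells. The lowest MDA-MB-231 library thus lay far above the highest Hs-578T library. Within MDA-MB-231 only the MEK5DD pair was low, and within Hs-578T the 3 groups stood apart, ERK5-ko highest. DUSP5 was at 79.3 and 77.7 RPKM in parental MDA-MB-231 cells, 54.3 and 62.5 in ERK5-ko cells and 57.0 and 57.7 in MEK5DD cells, so that both engineered groups were low and overlapped each other. Its Hs-578T values were 2.16 and 2.46 RPKM in parental, 3.304 and 2.92 in ERK5-ko and 4.08 and 4.602 in MEK5DD cells, 3 groups that did not overlap. DUSP6, which acts on ERK1/2 in the cytoplasm, was at 97.0 and 97.2 RPKM in parental MDA-MB-231 cells, 61.6 and 66.8 in ERK5-ko cells and 92.3 and 92.4 in MEK5DD cells. Here the ERK5-ko pair was the low one. In Hs-578T, DUSP6 was at 6.75 and 4.44 RPKM in parental, 7.41 and 7.81 in ERK5-ko and 12.8 and 14.9 in MEK5DD cells, with a wide gap between the parental libraries and none of the 3 groups overlapping.

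SPRY1 was at 14.9 and 14.8 RPKM in parental MDA-MB-231 cells, 15.5 and 17.2 in ERK5-ko cells and 7.002 and 7.73 in MEK5DD cells, and at 4.92 and 4.56, 2.56 and 2.98, and 5.34 and 6.66 RPKM in the same Hs-578T groups. MEK5DD was the low group in MDA-MB-231 and ERK5-ko the low group in Hs-578T. SPRY2 followed another order, with 36.6 and 36.0 RPKM in parental, 40.8 and 41.4 in ERK5-ko and 45.4 and 46.3 in MEK5DD MDA-MB-231 cells, and 8.38 and 8.35, 8.11 and 7.35, and 17.1 and 18.5 RPKM in Hs-578T. Its highest pair was MEK5DD in both lines. SPRY4 was at 73.0 and 72.5 RPKM in parental, 45.6 and 44.2 in ERK5-ko and 71.1 and 71.5 in MEK5DD MDA-MB-231 cells, and at 4.85 and 5.51, 7.64 and 7.31, and 8.002 and 8.68 RPKM in Hs-578T. The ERK5-ko pair was thus low in MDA-MB-231, while both engineered pairs lay above parental cells in Hs-578T.

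The SPRED genes, whose products bind RAF and recruit neurofibromin to RAS, differed less between the lines. SPRED1 was at 33.2 and 30.9 RPKM in parental, 37.7 and 35.1 in ERK5-ko and 19.95 and 18.4 in MEK5DD MDA-MB-231 cells, and at 12.9 and 15.5, 14.7 and 15.6, and 17.0 and 17.9 RPKM in Hs-578T, where the parental and ERK5-ko libraries overlapped. SPRED2 was at 44.5 and 47.2, 42.5 and 39.6, and 50.02 and 49.7 RPKM in MDA-MB-231, and at 28.1 and 36.2, 44.6 and 41.2, and 26.2 and 32.9 RPKM in Hs-578T. Its parental and MEK5DD libraries overlapped in Hs-578T, and its Hs-578T-ERK5-ko pair reached the MDA-MB-231 range.

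ETV4 was at 60.2 and 61.6 RPKM in parental, 45.2 and 50.3 in ERK5-ko and 47.5 and 49.1 in MEK5DD MDA-MB-231 cells, and at 10.1 and 9.47, 25.6 and 28.6, and 14.9 and 12.6 RPKM in Hs-578T. Both engineered pairs were low in MDA-MB-231 and high in Hs-578T, where ERK5-ko stood highest. ETV5 was at 113 and 113, 75.7 and 73.9, and 118 and 120 RPKM in MDA-MB-231, and at 77.4 and 86.0, 119 and 121, and 87.9 and 96.1 RPKM in Hs-578T. With ERK5-ko low in one line and high in the other, ETV5 was higher in Hs-578T-ERK5-ko than in MDA-MB-231-ERK5-ko cells, unlike in the parental pair. Exons of ETV4 share 68 bases with DHX8 on the other strand, and those of ETV5 share 164 bases with DGKG, so that some reads of both genes could not be assigned with certainty.

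**Figure D1:**
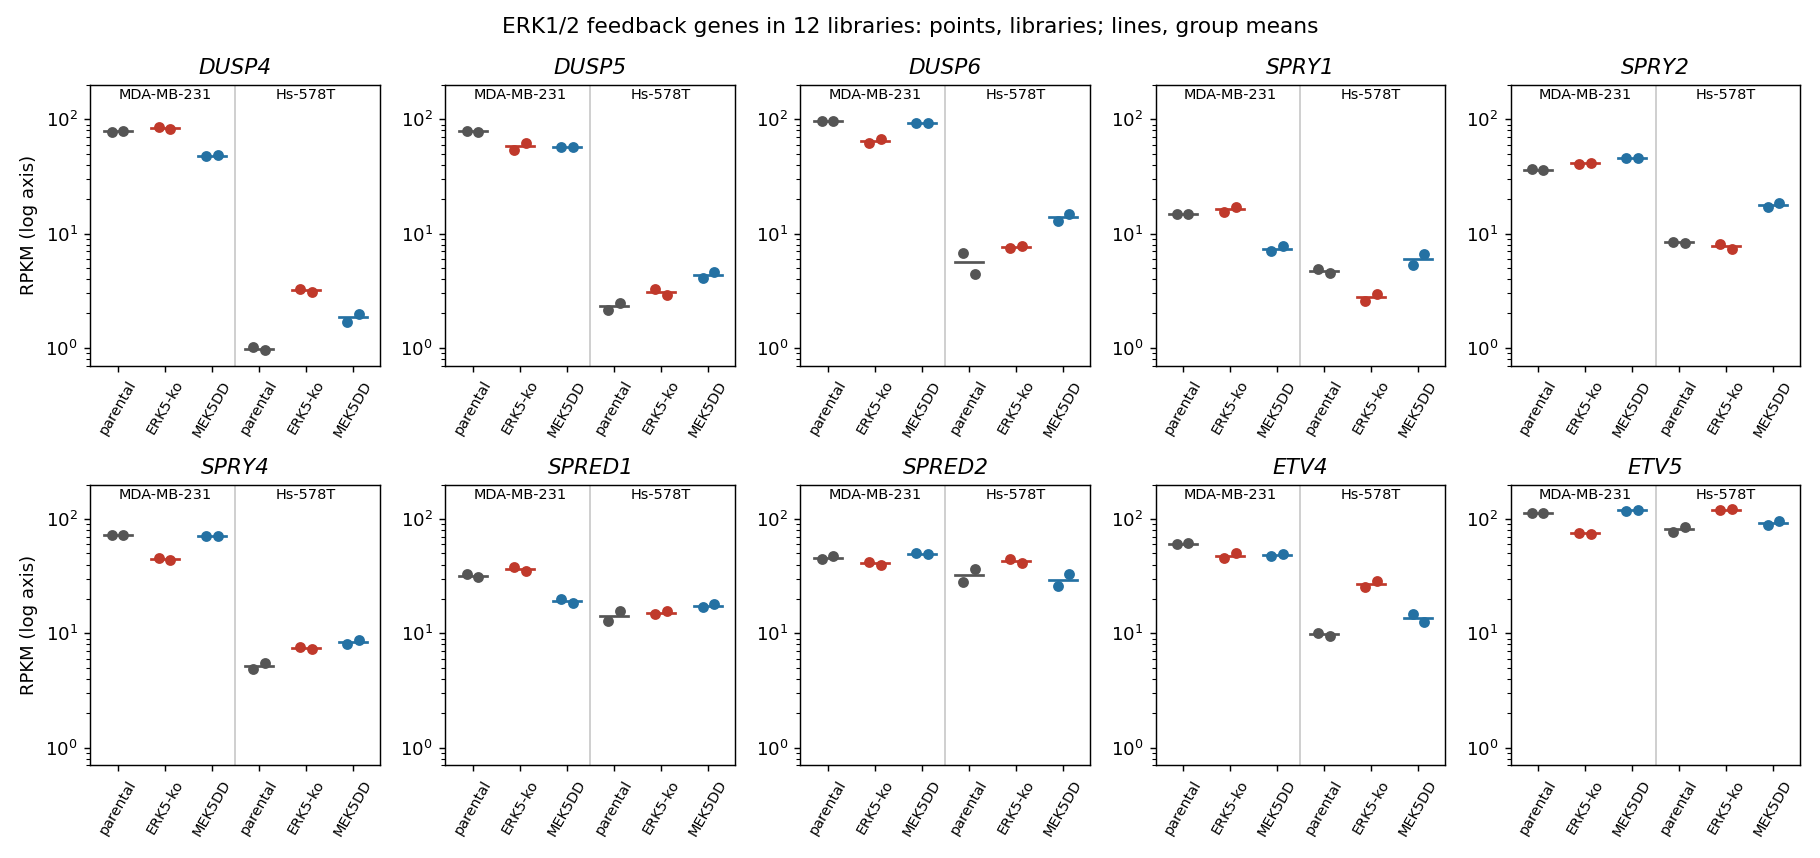
RPKM of the 10 feedback genes on a log axis, 1 panel per gene, with points for libraries and lines for group means (2 libraries each). SPRED2 and ETV5 overlap between the 2 lines. The other 8 genes do not, and the share of all genes without such overlap was not counted. Between parental cells, 46.0% of all genes tested were higher in MDA-MB-231 and 31.3% were lower (limma adjusted p under 0.05).

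In parental cells the difference between lines passed the test for 10 of 10 feedback genes, all higher in MDA-MB-231, beside 46.0% of all 13737 genes tested that were higher and 31.3% that were lower (limma on log2(RPKM + 0.5), Benjamini-Hochberg adjusted p under 0.05, as for every test below). The log2 difference was 5.73 ± 0.0958 for DUSP4 (adjusted p = 5.3e-13), 4.82 for DUSP5 and 4.03 for DUSP6. It was 3.69 for SPRY4, 2.05 for SPRY2 and 1.55 for SPRY1. The transcription factors parted, ETV4 at 2.58 and ETV5 at 0.47, and SPRED1 and SPRED2 were at 1.15 and 0.52. Their median was 2.31, against 0.19 over all genes. Scaling each library by its median ratio shifted the median of all genes by -0.21 and quantile normalization by -0.11, and the median-ratio shares were 37.0% higher and 38.9% lower. SPRED2 then no longer passed (log2 difference 0.28, adjusted p = 0.0588 with median-ratio scaling), and its difference was 0.34 without parental replicate 1 of Hs-578T. The order of genes within a line depends on the length behind RPKM, which was close to the mean length of a gene's annotated transcripts for most genes, though not for SPRY4 and SPRY2 (1796 and 2167 bases, against means of 2390 and 2409.5). In parental MDA-MB-231 cells ETV5 led at 113 RPKM with a length of 884 bases, but stood at 24.3 per longest transcript of 4111 bases, below DUSP4 at 60.1. Ratios between libraries do not depend on this length.

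In MDA-MB-231 cells, 5 feedback genes fell in the libraries labelled ERK5-ko and 0 rose, beside 10.4% of all genes that fell and 6.91% that rose (8.20% and 9.18% with median-ratio scaling). The members of this group came from 3 of the families: 2 phosphatases, 1 Sprouty gene and both ETS factors. SPRY4 fell by 0.69 ± 0.0901 on the log2 scale (SE, adjusted p = 0.000436) and ETV5 by 0.59 ± 0.0835 (adjusted p = 0.000745), and the mean RPKM of SPRY4 fell by 38.3% and that of ETV5 fell by 33.7%. DUSP6 fell by 0.59 ± 0.149 (adjusted p = 0.0184), DUSP5 by 0.43 ± 0.108 (adjusted p = 0.0196) and ETV4 by 0.35 ± 0.103 (adjusted p = 0.0383). DUSP4, SPRY1, SPRY2, SPRED1 and SPRED2 did not pass, at log2 fold changes of 0.09, 0.13, 0.18, 0.18 and -0.16. With the fold thresholds of the study added (above 1.5 or below 0.5), 0 feedback genes and 3.87% of all genes changed. A fall to 0.5 is a larger log2 change than a rise to 1.5, so that this rule counts rises more readily than falls. The median over the feedback genes was -0.26, against -0.04 over all genes.

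The calls for SPRY4 and ETV5 held without any 1 library, whereas those for DUSP6, DUSP5 and ETV4 were lost when certain single libraries were left out. In those settings the log2 fold change was between -0.65 and -0.54 for DUSP6, between -0.44 and -0.33 for DUSP5 and between -0.43 and -0.27 for ETV4. Without either parental library or without ERK5-ko replicate 1, only SPRY4 and ETV5 passed, and DUSP5 passed besides them without ERK5-ko replicate 2. DUSP6 had an adjusted p of 0.103 or 0.102 without parental replicate 1 or 2, and of 0.116 or 0.0653 without ERK5-ko replicate 1 or 2. DUSP5 had 0.13, 0.104 and 0.157 without parental replicate 1 or 2 or ERK5-ko replicate 1. ETV4 had 0.152 and 0.191 without parental replicate 1 or 2, 0.222 and 0.0697 without ERK5-ko replicate 1 or 2, and 0.0655 and 0.0656 without MEK5DD replicate 1 or 2, with the change itself still at -0.35. With the 6 libraries of this line alone, SPRY2 passed besides the 5, as the 1 that was higher (0.18, adjusted p = 0.0217). Such a fit has its own estimate of the spread, and the share of all genes that pass in it is not given here or below. The summed markers of other cell types, at 52.8 to 64.5 RPKM, overlapped the parental 63.3 to 69.9 RPKM. PECAM1 among them fell by 0.73, with 22 and 30 reads in parental and 8 and 8 in ERK5-ko cells. Of the 7 tested epithelial and mesenchymal markers, EPCAM alone passed, at 0.39. The call for ETV4 was also lost with median-ratio scaling (adjusted p = 0.0958) and quantile normalization (adjusted p = 0.0986).

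In Hs-578T cells the same label went with higher transcripts: 7 feedback genes rose and 1 fell in ERK5-ko libraries, beside 19.7% of all genes in each direction. ETV4 rose by 1.42 ± 0.103 (adjusted p = 2.05e-06), from 9.80 ± 0.470 to 27.1 ± 2.12 RPKM (SD, n = 2), and DUSP4 by 1.32 ± 0.0958 (adjusted p = 2.05e-06), from 0.983 ± 0.0392 to 3.20 ± 0.136 RPKM. For DUSP4, close to the added 0.5, the fitted change understates the ratio of the means, which was 3.26. ETV5 rose by 0.56 ± 0.0835 (adjusted p = 0.00036) and SPRY4 by 0.49 ± 0.0901 (adjusted p = 0.00135). DUSP6, SPRED2 and DUSP5 rose by 0.44, 0.42 and 0.36. SPRY1 was the 1 that fell, by 0.68 ± 0.125 (adjusted p = 0.0013), and SPRY2 and SPRED1 did not pass, at -0.11 and 0.09. With the fold thresholds added, ETV4 and DUSP4 changed, beside 12.6% of all genes. The median was 0.43, against 0.01 over all genes.

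The calls for DUSP6, DUSP5 and SPRED2 were lost under several settings. DUSP6 spread from 4.44 to 6.75 RPKM over the parental libraries, and its change was 0.16 without parental replicate 2 (adjusted p = 0.287) but 0.72 without parental replicate 1. Its adjusted p was also 0.0924 or 0.168 without ERK5-ko replicate 1 or 2, and 0.0543 to 0.0558 without a parental or MEK5DD library of MDA-MB-231, 0.0597 with no filter on low values and 0.0625 with quantile normalization. DUSP5 had an adjusted p of 0.121 without parental replicate 1, 0.131 without ERK5-ko replicate 1 and 0.0599 with voom on the recovered reads. SPRED2 was at 0.24 without parental replicate 1 (adjusted p = 0.205), and had 0.133 and 0.0699 without ERK5-ko replicate 1 or 2. With the 6 libraries of this line alone, 5 feedback genes passed, and DUSP6 (0.182), DUSP5 (0.112) and SPRED2 (0.131) did not. Of the 7 state markers, 4 rose and 0 fell in the same libraries, CDH1, the gene of E-cadherin, by 1.21, GATA3 by 1.04, CD44 by 0.70 and AXL by 0.63. CDH1 was low, at 0.168 RPKM in parental and 1.04 RPKM in ERK5-ko cells, so that its fitted change understates the ratio of these means. The summed level of the 6 markers of other cell types was 29.6 to 32.2 RPKM, against 43.4 to 49.5 in parental cells. CD68 made up most of it and fell by 0.73, and PECAM1 did not pass. The part of either in the feedback genes was not tested. In these bulk libraries of cultured lines, a change in the share of cells in a given state and a change in RNA per cell cannot be told apart.

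**Figure D2:**
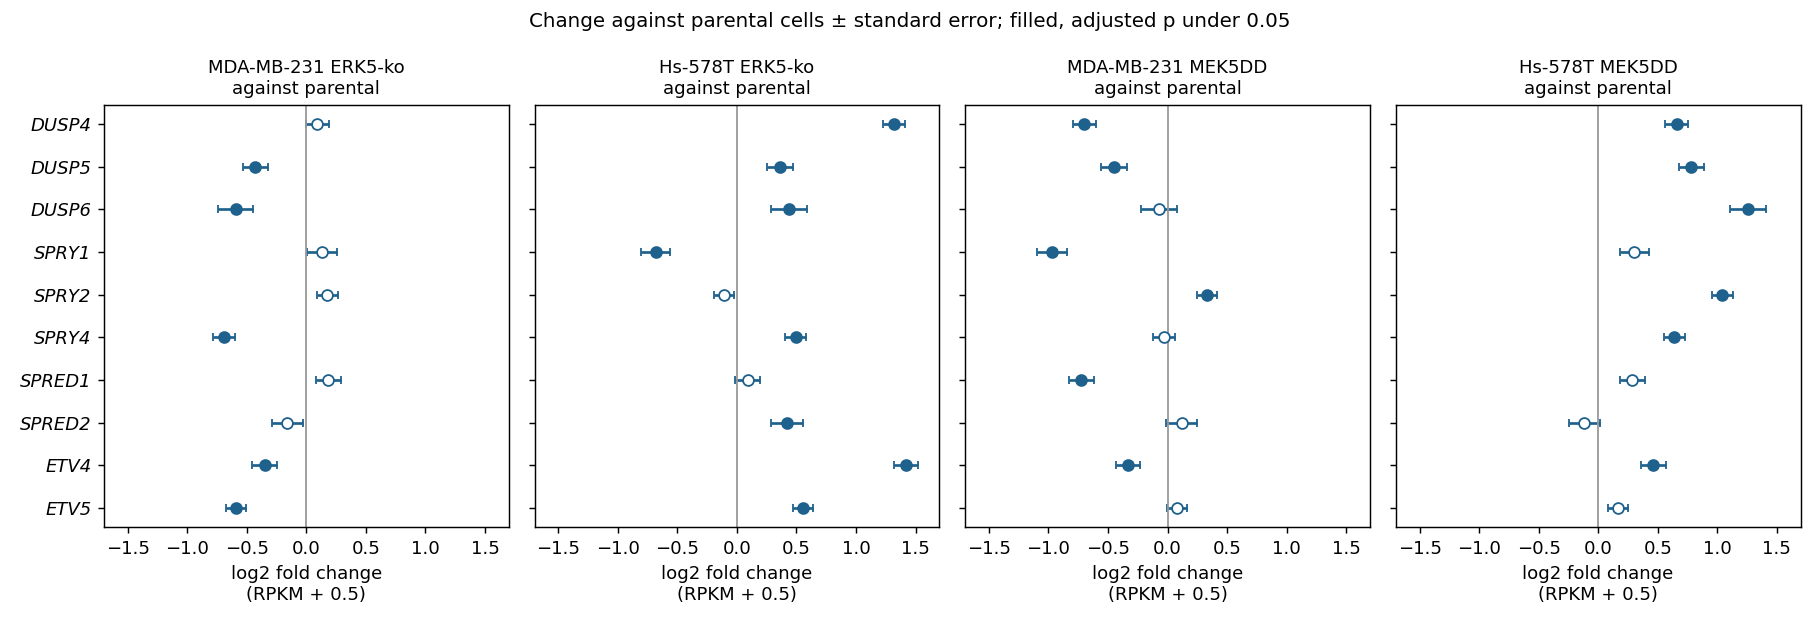
Log2 fold change of the 10 feedback genes against parental cells of the same line, ± standard error, on the log2(RPKM + 0.5) scale, with filled points for adjusted p under 0.05. In ERK5-ko cells the filled points lie below 0 in MDA-MB-231 and above 0 in Hs-578T except for SPRY1, and in MEK5DD cells they lie below 0 in MDA-MB-231 except for SPRY2 and above 0 in Hs-578T.

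In MDA-MB-231-MEK5DD cells, 5 feedback genes fell and 1 rose, beside 23.8% of all genes that fell and 17.5% that rose (20.5% and 23.0% with quantile normalization). SPRY1 fell by 0.97 ± 0.125 (adjusted p = 8.07e-05), from 14.9 ± 0.0774 to 7.37 ± 0.515 RPKM (SD, n = 2). SPRED1 fell by 0.73 ± 0.105 (adjusted p = 0.000196), DUSP4 by 0.70 ± 0.0958 (adjusted p = 0.000132), DUSP5 by 0.45 ± 0.108 (adjusted p = 0.00601) and ETV4 by 0.33 ± 0.103 (adjusted p = 0.0234). SPRY2 rose by 0.33 ± 0.0866 (adjusted p = 0.00925). DUSP6, SPRY4, SPRED2 and ETV5 did not pass, at -0.07, -0.03, 0.12 and 0.08. The value of SPRY4 turned to 0.0080 with median-ratio scaling. With the fold thresholds added, 0 feedback genes and 13.9% of all genes changed. The median was -0.20, against -0.01 over all genes.

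Left-out libraries ended the calls of ETV4 and SPRY2. ETV4 had an adjusted p of 0.0866 and 0.118 without parental replicate 1 or 2 and of 0.125 and 0.0785 without MEK5DD replicate 1 or 2, and of 0.0536 with quantile normalization. SPRY2 had 0.0521 and 0.0663 without parental replicate 1 or 2 and 0.0661 without MEK5DD replicate 2. In the same libraries 3 of the 7 state markers fell (EPCAM by 1.30, CDH1 by 1.14 and ERBB2 by 0.34) and 2 rose (VIM by 1.04 and CD44 by 0.56). The summed level of the markers of other cell types was 107 to 108 RPKM, against 63.3 to 69.9 RPKM in parental cells. CD68 made up nearly all of it and rose by 0.70. PECAM1 fell by 0.76, with 22 and 30 reads in parental and 6 and 11 in MEK5DD cells. The part of these markers in the feedback genes was not tested.

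In Hs-578T-MEK5DD cells, 6 feedback genes rose and 0 fell, beside 6.44% of all genes that rose and 17.0% that fell (9.39% and 11.9% with median-ratio scaling). DUSP6 rose by 1.26 ± 0.149 (adjusted p = 0.000197), from 5.59 ± 1.63 to 13.8 ± 1.45 RPKM (SD, n = 2), and SPRY2 by 1.04 ± 0.0866 (adjusted p = 1.68e-05), from 8.37 ± 0.0211 to 17.8 ± 1.03 RPKM. The other phosphatases rose too, DUSP5 by 0.78 ± 0.108 (adjusted p = 0.00055) and DUSP4 by 0.66 ± 0.0958 (adjusted p = 0.000718), followed by SPRY4 at 0.64 ± 0.0901 (adjusted p = 0.000617) and ETV4 at 0.47 ± 0.103 (adjusted p = 0.0081). These 6 genes passed without any 1 library. ETV4 did not pass with the 6 libraries of this line alone (adjusted p = 0.0957). With the fold thresholds added, 5 feedback genes and 4.38% of all genes changed. The median was 0.55, against -0.08 over all genes.

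SPRY1, SPRED1, SPRED2 and ETV5 did not pass in these cells, at 0.30, 0.29, -0.12 and 0.17. SPRED1 passed when the replicate number within each line was a block (adjusted p = 0.0221, against 0.0704 without the block) and without parental replicate 2 (adjusted p = 0.0294). SPRY1 passed without MEK5DD replicate 1 (adjusted p = 0.0316). With either rescaling SPRY1, SPRED1 and ETV5 also passed, which made 9 genes higher. The summed markers of other cell types were at 45.3 to 56.4 RPKM, which overlapped the parental range, and PECAM1 in it fell by 0.84. Of the 7 state markers ERBB2 alone passed, at -0.40.

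Setting ERK5-ko directly against MEK5DD gave mixed directions in each line. These contrasts share libraries with those above and are given side by side with them. In MDA-MB-231, 3 feedback genes were higher in ERK5-ko than in MEK5DD cells (SPRY1 by 1.10, SPRED1 by 0.91 and DUSP4 by 0.79) and 3 were lower (ETV5 at -0.67, SPRY4 at -0.66 and DUSP6 at -0.52), beside 27.1% and 27.9% of all genes. The call for DUSP6 was lost without ERK5-ko replicate 1 (adjusted p = 0.0717) or MEK5DD replicate 1 (0.0521) or 2 (0.0517). SPRED2, at -0.28 and an adjusted p of 0.0919, passed when 1 parental or MEK5DD library of Hs-578T was left out (0.0453 to 0.0476). With the 6 libraries of this line alone 8 passed, SPRY2 (-0.16, adjusted p = 0.0123) and SPRED2 (0.00778) besides the 6 above. The share of all genes that passed in this fit is not given, so that this count has no background beside it. With the fold thresholds added, 3 feedback genes and 23.6% of all genes differed. DUSP5 and ETV4 differed by 0.02 and -0.02, and their direction turned with single libraries.

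In Hs-578T, where both engineered groups carried the same passage labels, 4 feedback genes were higher in ERK5-ko than in MEK5DD cells and 4 were lower, beside 30.7% and 19.2% of all genes (23.5% and 24.9% with median-ratio scaling). ETV4 (0.96), DUSP4 (0.66), SPRED2 (0.54) and ETV5 (0.39) were the higher ones. SPRY2 (-1.15), SPRY1 (-0.99), DUSP6 (-0.82) and DUSP5 (-0.42) were the lower ones, SPRY2 with an adjusted p of 1.28e-06. DUSP5 lost its call without ERK5-ko replicate 2 (adjusted p = 0.0683), and with the 6 libraries of this line alone DUSP5 (0.0606) and SPRED2 (0.0578) did not pass. SPRY4 and SPRED1, at -0.15 and -0.20, did not pass as deposited but did with median-ratio scaling (adjusted p = 0.0265 and 0.0238), which made 6 genes lower. With the fold thresholds added, 3 feedback genes and 19.3% of all genes differed.

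The difference between the lines in the response to each label was tested as a contrast of contrasts, MDA-MB-231 minus Hs-578T. For ERK5-ko it passed for 8 feedback genes, 7 lower and 1 higher in MDA-MB-231, beside 21.5% and 18.3% of all genes. ETV4 differed by -1.77 ± 0.146 (adjusted p = 7.35e-06), DUSP4 by -1.23, SPRY4 by -1.18, ETV5 by -1.15, DUSP6 by -1.03, DUSP5 by -0.79 and SPRED2 by -0.58, while SPRY1 differed by 0.81. The call for SPRED2 was lost without parental replicate 1 (adjusted p = 0.0957) or ERK5-ko replicate 1 (0.0906) or 2 (0.0548) of Hs-578T, and without parental replicate 1 (0.0581) or 2 (0.0895) or ERK5-ko replicate 2 (0.0934) of MDA-MB-231. SPRY2, at 0.28, passed with either rescaling (adjusted p = 0.0266 and 0.0285) or without MEK5DD replicate 1 or 2 of Hs-578T (0.0461 each). SPRED1, at 0.09, did not pass. Of the genes that passed here, DUSP5, DUSP6, SPRY4, ETV4 and ETV5 also passed within each line, in opposite directions. The share of all genes that did so was not counted. As given above, the calls within a line were lost under some settings for DUSP5 and DUSP6 in both lines and for ETV4 in MDA-MB-231.

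For MEK5DD the difference between lines passed for 8 feedback genes, all lower in MDA-MB-231, beside 18.2% of all genes that were lower and 21.3% that were higher. DUSP4 differed by -1.36 ± 0.135 (adjusted p = 1.91e-05), DUSP6 by -1.33, SPRY1 by -1.27, DUSP5 by -1.23, SPRED1 by -1.01, ETV4 by -0.80, SPRY2 by -0.71 and SPRY4 by -0.67. SPRED2 and ETV5 did not pass, at 0.24 and -0.09. These 8 calls held without any 1 library. MAP2K5 itself rose by 3.77 in MDA-MB-231 and by 0.50 in Hs-578T, so that the lines also differed in how far the MEK5 transcript was raised. The part of that difference in the feedback genes was not tested.

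**Figure D3:**
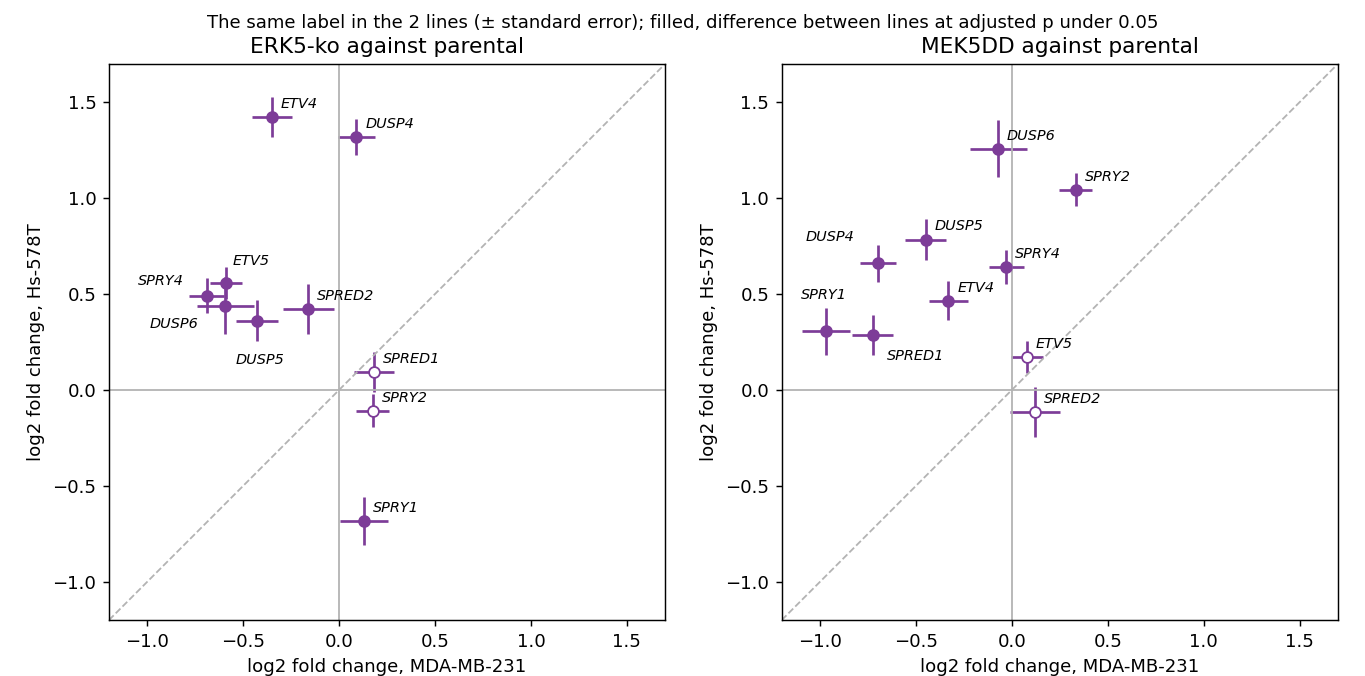
Log2 fold change against parental cells in Hs-578T (vertical axis) and MDA-MB-231 (horizontal axis) for ERK5-ko (left) and MEK5DD (right), 1 point per feedback gene, ± standard error, with equal changes on the dashed line. Filled points mark 8 genes per panel whose change differed between lines at adjusted p under 0.05; all of them but SPRY1 in ERK5-ko lie above the dashed line.

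The gene whose 4 changes against parental cells lay nearest to those of DUSP6, among 12422 tested genes with a mean of at least 1 RPKM, was CYTH1, an exchange factor for ARF GTPases, with a root mean square difference of 0.17 on the log2 scale. TMEM158 (0.17), DGKI (0.26), NAV3 (0.26) and MT-ND5 (0.26) came next. Of the other feedback genes, SPRY4 (0.31) and DUSP5 (0.32) were nearest, with 15 and 16 genes nearer than they were, and SPRY1 was farthest (0.93). This likeness rests on 4 comparisons that share 2 sets of parental libraries, and it is given as a description.

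Other genes of the pathway were counted in 3 lists. Of 12 further ERK1/2 output genes, 1 fell and 2 rose in MDA-MB-231-ERK5-ko cells, 1 fell and 6 rose in Hs-578T-ERK5-ko cells, 2 fell and 2 rose in MDA-MB-231-MEK5DD cells, and 1 fell and 3 rose in Hs-578T-MEK5DD cells. In the same order, 10.4%, 19.7%, 23.8% and 17.0% of all genes fell and 6.91%, 19.7%, 17.5% and 6.44% rose. The medians of the 12 genes were 0.07, 0.40, -0.05 and 0.20. FOSL1, which encodes the AP-1 subunit FRA-1, fell by 0.55 in MDA-MB-231-ERK5-ko cells and rose by 1.27 in Hs-578T-ERK5-ko cells, a difference between lines of -1.82 (adjusted p = 2.72e-06). It rose by 0.45 in MDA-MB-231-MEK5DD cells. CCND1, the cyclin of early G1, rose in Hs-578T by 0.93 in ERK5-ko and by 0.83 in MEK5DD cells. EGR1, an immediate early transcription factor, fell by 1.65 in Hs-578T-ERK5-ko cells. Its parental Hs-578T libraries were far apart, at 25.2 and 10.2 RPKM, and its change was -1.02 without the first and -2.28 without the second. FOS, at 110 and 10.1 RPKM, and DUSP1, at 30.9 and 10.6 RPKM, were also higher in the first of these 2 libraries. PHLDA1 (37.9 and 41.5 RPKM), CCND1 (130 and 152 RPKM) and EPHA4 (10.1 and 13.4 RPKM) were lower in it. The cause was not tested. PHLDA1, a pleckstrin homology domain gene, rose by 0.37 in MDA-MB-231-ERK5-ko cells, where IER3 also rose by 0.37, and fell by 0.93 in MDA-MB-231-MEK5DD cells, where LIF fell by 0.58. MAFF rose by 0.52 and the ephrin receptor gene EPHA4 fell by 0.65 in Hs-578T-MEK5DD cells. Under at least 1 alternative setting the calls for IER3 (highest adjusted p 0.306, at 0.21 without ERK5-ko replicate 2), PHLDA1 in ERK5-ko cells (0.154), EPHA4 (0.12) and EGR1 (0.0754) were lost, and the others named here held, the added fold thresholds aside.

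Of 16 genes of the cascade itself, 0 fell and 2 rose in MDA-MB-231-ERK5-ko cells, 2 fell and 5 rose in Hs-578T-ERK5-ko cells, 3 fell and 2 rose in MDA-MB-231-MEK5DD cells, and 3 fell and 0 rose in Hs-578T-MEK5DD cells. In the same order, 10.4%, 19.7%, 23.8% and 17.0% of all genes fell and 6.91%, 19.7%, 17.5% and 6.44% rose. The medians of the 16 genes were -0.0022, -0.04, -0.11 and -0.12, against -0.04, 0.01, -0.01 and -0.08 over all genes. KSR1, a scaffold that holds RAF, MEK and ERK together, fell by 2.11 in MDA-MB-231-MEK5DD cells (adjusted p = 3.77e-07), from 7.79 to 1.44 RPKM, and rose by 0.50 in ERK5-ko cells of that line. MAPK3, the gene of ERK1, rose by 0.33 in MDA-MB-231-ERK5-ko cells. In Hs-578T, MAPK3 fell by 0.59 in ERK5-ko cells, where PTPN11, the gene of the phosphatase SHP2, and HRAS rose by 0.74 and 0.69, and by 0.38 in MEK5DD cells, where GRB2 and ARAF fell by 0.33 and 0.29. SHC1 fell by 0.39 and HRAS rose by 0.35 in MDA-MB-231-MEK5DD cells. The calls for KSR1 in MDA-MB-231-MEK5DD cells and for MAPK3 and HRAS in Hs-578T-ERK5-ko cells held under every alternative run apart from the added fold thresholds, while each of the other calls named here was lost under at least 1, with highest adjusted p from 0.0534 for SHC1 to 0.262 for MAPK3 in MDA-MB-231-ERK5-ko cells. GRB2 was at -0.19 without MEK5DD replicate 1 of Hs-578T (adjusted p = 0.111).

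**Figure D4:**
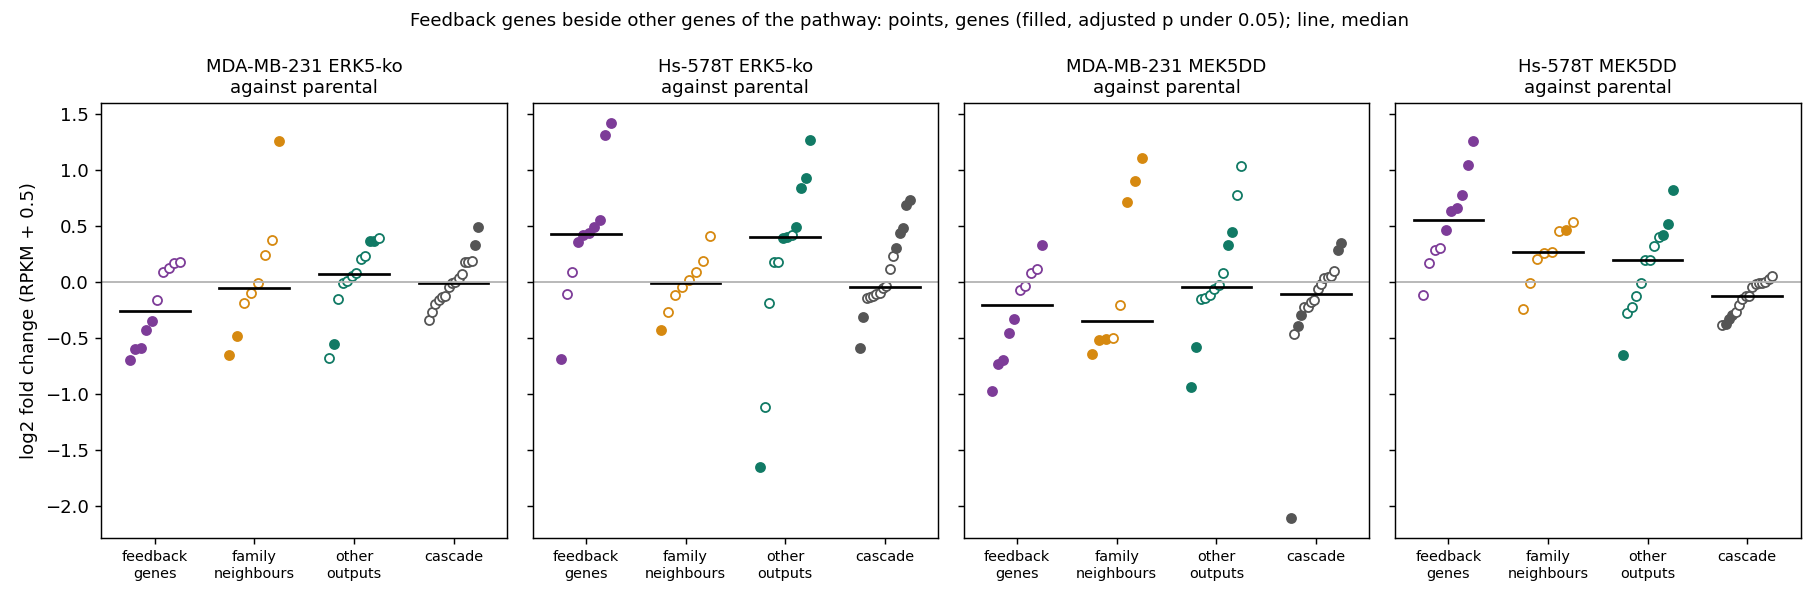
Log2 fold change against parental cells, on the log2(RPKM + 0.5) scale, of the 10 feedback genes, 8 tested family neighbours, 12 other output genes and 16 cascade genes, with filled points for adjusted p under 0.05 and a line at each median. The feedback genes and the other outputs have medians of 0.43 and 0.40 in Hs-578T-ERK5-ko cells, while the medians of the cascade genes lie between -0.12 and -0.0022.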

How the data were processed

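The 12 RNA-seq libraries were grouped by line and label. The authors deposited RPKM values, reads scaled to gene model length and library size. The submitters' processing notes name bcl2fastq, Trimmomatic 0.32, TopHat2 2.1.1, R 3.3.1 and DESeq2 1.12.4 and GRCh38, and the counting tool and its strand setting are not given in the sources used here. Since RPKM steps are those of single reads, whole reads could be recovered for 32151 of 32152 genes (relative tolerance 1e-09), against 0 of 500 genes with totals 1% off. The length behind RPKM was within 5% of the mean annotated transcript length (GENCODE 29) for 89.7% of 10284 genes. Level over the whole library set was 14.2 to 30.6 RPKM for DHX8 and 0.752 to 4.53 RPKM for DGKG, which share exon bases with ETV4 and ETV5. Exons of DUSP6 share 1875 bases with AC024909.2 on the other strand (at most 0.108 RPKM), and those of MAPK7 share 243 and 103 bases with B9D1 and MFAP4.

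Tests were made with limma 3.58.1 in R 4.3.3 (lmFit, eBayes with trend) on log2(RPKM + 0.5) for 13737 protein-coding genes with at least 0.5 RPKM in at least 2 libraries. The 12 libraries were fitted as 6 group means with 6 residual degrees of freedom, and p-values were adjusted by Benjamini-Hochberg within a comparison. An exact permutation test of 2 against 2 libraries cannot go below p = 0.333. Deviations from the group means of libraries with the same replicate number, that is, of earlier and of later passages, correlated at 0.107 to 0.541 across 6 within-line pairs of groups, and the replicate number was therefore also fitted as a block. Scripts were tested on simulated data. No 2 libraries were identical, and replicates differed by more than counting noise (chi-square per degree of freedom 2.82 to 42.2). The genes and lists were chosen with earlier results of these data known. Some members of the cascade list are not reported here. All 10 genes were named, with MAPK7 and MAP2K5 as checks, the markers, for each other list up to 3 changed genes per comparison of largest change and a mean of at least 1 RPKM, and the 5 genes nearest to DUSP6. Alternatives were pseudocounts of 0.1 and 1, 2 other filters, median-ratio scaling, quantile normalization, 1 line only, all gene types, the block, voom on the recovered reads, added fold thresholds and each library left out in turn. Columns without a sample numbered 0.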

Additional observations from a re-analysis of the deposited data

Results flagged for a closer look

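The response of the feedback genes to the same label differed between MDA-MB-231 and Hs-578T cells, which was tested for each gene (log2 fold change in MDA-MB-231 minus that in Hs-578T, limma with adjusted p under 0.05). For ERK5-ko the differences were -1.77 for ETV4, -1.23 for DUSP4, -1.18 for SPRY4, -1.15 for ETV5, -1.03 for DUSP6, -0.79 for DUSP5, -0.58 for SPRED2 and 0.81 for SPRY1. For MEK5DD they were -1.36 for DUSP4, -1.33 for DUSP6, -1.27 for SPRY1, -1.23 for DUSP5, -1.01 for SPRED1, -0.80 for ETV4, -0.71 for SPRY2 and -0.67 for SPRY4. Of the 6 genes that differed under both labels (DUSP4, DUSP5, DUSP6, SPRY1, SPRY4 and ETV4), SPRY1 alone had differences of opposite sign. How many of all genes differed under both labels was not counted. Both differences use the same parental libraries. Groups of 2 libraries were too small to look for single outlying samples.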

How the results depend on the processing

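Of 2808 alternative values of 129 single-gene changes, 2616 kept their direction and their side of the threshold, 141 kept the direction but no longer passed, 41 newly passed and 10 changed sign. Leaving out a library that a comparison does not use cannot move its fold change. Part of this agreement was therefore fixed in advance. Of those that changed sign, SPRED1 in Hs-578T-ERK5-ko cells ranged from -0.035 without parental replicate 1 to 0.22 with other libraries left out, and SPRED2 in Hs-578T-MEK5DD cells from -0.30 to 0.064 (and 0.046 without MEK5DD replicate 1). SPRY4 in MDA-MB-231-MEK5DD cells was at 0.0080 with median-ratio scaling. Between ERK5-ko and MEK5DD cells of MDA-MB-231, DUSP5 ranged from -0.078 without ERK5-ko replicate 2 to 0.12, and ETV4 from -0.095 to 0.057 with 1 library left out (0.0049 without MEK5DD replicate 2), and was at 0.0099 with median-ratio scaling and 0.00087 with quantile normalization. The ERK5-ko difference between lines of SPRED1 ranged from -0.037 without parental replicate 2 of Hs-578T to 0.22. None of these 10 passed the test in either setting, and the cause was not tested. With 1 library left out, 2 to 5 feedback genes changed in MDA-MB-231-ERK5-ko (5 with all libraries), 5 to 8 in Hs-578T-ERK5-ko (8), 4 to 6 in MDA-MB-231-MEK5DD (6) and 6 to 7 in Hs-578T-MEK5DD cells (6). The contrasts of ERK5-ko with MEK5DD ranged over 5 to 7 in MDA-MB-231 and 7 to 8 in Hs-578T, the differences between lines over 7 to 9 for ERK5-ko and 8 to 8 for MEK5DD, and the parental contrast stayed at 10. With a fold above 1.5 or below 0.5 also required, the counts were 0 and 2 for ERK5-ko in MDA-MB-231 and Hs-578T, 0 and 5 for MEK5DD, and 3 and 3 for ERK5-ko against MEK5DD, by construction of a stricter rule. That rule asks a larger log2 change of a fall than of a rise, so that its counts are not comparable between directions. SPRY4 at 0.617 of its parental mean in MDA-MB-231-ERK5-ko cells did not count, while SPRY4 at 1.61-fold in Hs-578T-MEK5DD cells did. With the libraries of 1 line only, 6 passed in MDA-MB-231-ERK5-ko, 5 in Hs-578T-ERK5-ko, 6 in MDA-MB-231-MEK5DD and 5 in Hs-578T-MEK5DD cells, and 8 and 6 between ERK5-ko and MEK5DD cells of MDA-MB-231 and Hs-578T. With the replicate block, 7 passed in Hs-578T-MEK5DD cells in place of 6, and it changed no other call of a feedback gene. Depth of 83 reads or more per feedback gene and library limits DUSP4 and DUSP5 in Hs-578T most.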

Other observations

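Other members of the same gene families were also measured. Of 10 such genes 8 were tested, and DUSP9 and SPRY3 were not. In MDA-MB-231-ERK5-ko cells 1 rose and 2 fell, beside 6.91% of all genes that rose and 10.4% that fell. DUSP8, a phosphatase of the stress kinases JNK and p38, rose by 1.26 (adjusted p = 0.000486), from 0.589 to 2.11 RPKM, while DUSP7 fell by 0.65 and SPRED3 by 0.48. In MDA-MB-231-MEK5DD cells 3 rose and 3 fell, beside 17.5% of all genes that rose and 23.8% that fell. DUSP1 by 1.11, SPRED3 by 0.90 and DUSP10 by 0.72 were the ones that rose. The 3 that fell changed by less. Mean levels of DUSP16 and DUSP7 were 8.70 and 13.8 RPKM in these cells, against 13.8 and 19.8 RPKM in parental cells. In Hs-578T, DUSP16 fell by 0.42 in ERK5-ko cells, beside 19.7% of all genes in each direction. ETV1, the third member of the PEA3 family of ETS factors, rose by 0.47 in Hs-578T-MEK5DD cells. There, 6.44% of all genes rose and 17.0% fell. No other of the 8 genes passed in either Hs-578T comparison. The calls for DUSP1, DUSP16, ETV1 and, in ERK5-ko cells, SPRED3 were lost under at least 1 alternative setting, with adjusted p of up to 0.113, 0.162, 0.142 and 0.255. ETV1 was at 0.25 without parental replicate 1 of Hs-578T (adjusted p = 0.113). Medians over the 8 genes were -0.05 and -0.35 in MDA-MB-231 and -0.01 and 0.27 in Hs-578T, for ERK5-ko and MEK5DD.

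Genes that only one line expressed were used to look for material of the other line. The parental libraries were used to choose these genes, so that values are given for the engineered libraries. In those of Hs-578T, 30 genes restricted to MDA-MB-231 summed to 0.0586% to 0.108% of their level in parental MDA-MB-231 cells. In those of MDA-MB-231, 79 genes restricted to Hs-578T summed to 0.0128% to 0.0524% of their level in parental Hs-578T cells.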
